A study of Mus musculus with 10 samples.

Results

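The interferon-induced transmembrane genes Ifitm1, Ifitm2, Ifitm3 and Ifitm6 were followed across 10 RNA sequencing libraries of cells sorted from tumor-bearing mice. These 4 genes, of 17603 with a value, were selected on the measured FPKM values of Ifitm6, which differed most of all genes between spleen CD45+ and spleen CD45- cells, and the other 3 are its family members. The libraries fell into tumor CD45+ (n = 4), spleen CD45+ (n = 3) and spleen CD45- (n = 3) groups. All came from female C3H/HeN mice labelled wild type that carried tumors of the injected mouse squamous carcinoma line SCC7, labelled as a head and neck cancer model. No group came from mice without a tumor, and neither the age of the mice nor the time of tumor growth is given in the sources used here. The labels call the sorted cells EPC without spelling the term out. CD45, the product of Ptprc, is the surface phosphatase of white blood cells and served as the sorting gate. The labels do not say whether replicates were separate mice, so the p-values below speak to the scatter among the sequenced samples alone, and that scatter may be technical.

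IFITM proteins are small membrane proteins of the CD225 family that many cells make in response to interferons. They sit in the plasma membrane and in endosomes and hinder the fusion of enveloped viruses with those membranes. In mice most of the family lies in 1 gene cluster. Ifitm3 acts mainly in late endosomes, Ifitm2 is its close relative in endosomes, and Ifitm1 is found mostly at the cell surface. Ifitm6 is a less studied mouse member. Interferon-induced genes are commonly switched on through short promoter elements, the interferon-stimulated response element (ISRE) and the gamma-activated sequence (GAS).

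The 4 genes lie on chromosome 7 of GRCm38.p6, in the order Ifitm2 (chr7:140954837-140959686, minus strand, NCBI gene 80876), Ifitm1 (chr7:140967429-140969827, plus strand, gene 68713), Ifitm3 (chr7:141009590-141010744, minus strand, gene 66141) and Ifitm6 (chr7:141015812-141016892, minus strand, gene 213002). Each has 2 coding exons. The coding part holds 106 codons in Ifitm1, 144 in Ifitm2, 137 in Ifitm3 and 104 in Ifitm6, without the stop codon. Aligned coding bases were 82.1% identical between Ifitm1 and Ifitm2, 82.1% between Ifitm1 and Ifitm3 and 80.9% between Ifitm2 and Ifitm3. Ifitm6 stood further off, with 69.4% to 70.3% identity to the other 3. The longest run of identical transcript bases was 69 between Ifitm2 and Ifitm3 and 64 between Ifitm1 and Ifitm3, against at most 25 between Ifitm6 and any other member. Of the 50-base windows of Ifitm2, 3.30% occurred in Ifitm3, so a small part of the reads of Ifitm1, Ifitm2 and Ifitm3 could have been split between them by the authors' counting.

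RefSeq promoter windows (GRCm38.p6, 250 bases before to 50 after an annotated start) were found for 4 of 4 members. They are shown as a description of the start regions, and any link to the levels of the members was not tested. The windows are chr7:140967826-140968125 on the plus strand for Ifitm1, and on the minus strand chr7:140955912-140956211 for Ifitm2, chr7:141010695-141010994 for Ifitm3 and chr7:141016843-141017142 for Ifitm6. In Ifitm3 and Ifitm6 the start is the outermost one of the gene, and in Ifitm1 and Ifitm2 it lies inside the annotated span. Capitals mark the ISRE core (GAAA, any 2 bases, GAAA), searched on both strands, and each sequence runs 5′ to 3′ along its gene.
Ifitm1: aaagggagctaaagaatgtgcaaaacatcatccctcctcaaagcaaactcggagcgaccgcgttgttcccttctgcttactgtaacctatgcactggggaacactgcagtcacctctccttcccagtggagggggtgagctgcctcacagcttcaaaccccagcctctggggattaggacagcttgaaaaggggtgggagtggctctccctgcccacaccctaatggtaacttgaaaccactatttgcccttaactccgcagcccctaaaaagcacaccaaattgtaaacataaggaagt
Ifitm2: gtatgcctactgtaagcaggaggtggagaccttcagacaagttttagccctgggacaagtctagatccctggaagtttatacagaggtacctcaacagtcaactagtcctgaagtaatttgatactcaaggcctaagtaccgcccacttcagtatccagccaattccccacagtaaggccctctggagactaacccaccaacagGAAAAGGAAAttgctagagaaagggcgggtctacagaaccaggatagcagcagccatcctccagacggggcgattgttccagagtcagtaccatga
Ifitm3: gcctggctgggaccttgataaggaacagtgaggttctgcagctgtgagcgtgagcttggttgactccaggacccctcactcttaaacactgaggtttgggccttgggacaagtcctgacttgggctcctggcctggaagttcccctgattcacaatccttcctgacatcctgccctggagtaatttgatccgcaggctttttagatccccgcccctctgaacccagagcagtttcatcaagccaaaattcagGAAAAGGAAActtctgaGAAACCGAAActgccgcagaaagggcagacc
Ifitm6: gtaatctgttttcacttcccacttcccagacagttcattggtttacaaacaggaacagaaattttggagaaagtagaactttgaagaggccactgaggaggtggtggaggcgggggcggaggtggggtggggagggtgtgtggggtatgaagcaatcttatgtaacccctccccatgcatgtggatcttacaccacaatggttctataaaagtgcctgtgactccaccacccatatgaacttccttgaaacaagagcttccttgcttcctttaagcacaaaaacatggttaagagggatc

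The ISRE core was present in the windows of Ifitm2, at position -46 from the start, and of Ifitm3, at positions 3 and 20. It was not found in the windows of Ifitm1 or Ifitm6. Of 32851 mouse promoter windows of the same length, 3.44% hold it. The GAS core TTCNNNGAA, which reads alike on both strands and is held by 8.30% of the windows, was found in Ifitm3 at position 14, where it overlaps the second ISRE core by 3 bases, and in Ifitm6 at position -10. The core GAGGAA of PU.1, a transcription factor of myeloid cells, is held by 28.3% of the windows and by none of these 4. These matches describe letters only.

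Read depth was similar throughout, at about 17500000 to 19700000 fragments per library, estimated from the smallest steps of the deposited values. Values are FPKM, fragments scaled to transcript length and to the fragments of the library, with all models of a gene summed. Genes at 1 FPKM or more numbered 10728 to 10945 in tumor CD45+, 9828 to 10890 in spleen CD45+ and 7853 to 7960 in spleen CD45- libraries. Ptprc stood at 59.4 to 92.5 FPKM in tumor CD45+, 39.2 to 265 in spleen CD45+ and 1.63 to 2.57 in spleen CD45- libraries, which follows the gate. Tumor CD45+ replicate 1 and spleen CD45+ replicate 2 stood apart from their groups, and tumor CD45+ replicates 2 and 3 were nearly alike but differed by more than counting noise (chi-square per degree of freedom 3.20). The 12 erythroid markers, which include globins, summed to 6001 to 40981 FPKM in tumor CD45+, 129654 to 276673 in spleen CD45+ and 326318 to 416881 in spleen CD45- libraries. Most of each sum was the globin gene Hba-a1. Its FPKM was 5916 to 40541 in tumor CD45+, 122857 to 268492 in spleen CD45+ and 313172 to 403205 in spleen CD45- libraries. In tumor CD45+ libraries the erythroid genes Klf1, Gata1, Epor and Epb42 were below 1 FPKM in every library, so the label EPC covers cells with unlike marker profiles. Hbb-bs was also below 1 FPKM there, but it had only 0.43 to 1.67 in spleen CD45+ and 1.68 to 3.87 in spleen CD45- libraries. Other erythroid markers stayed above 1 FPKM in every tumor library, among them Alas2 (39.4 to 224) and Tfrc (11.7 to 18.4). In bulk libraries, fewer cells of a type and less RNA per cell cannot be told apart.

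Ifitm3 was the most abundant member in tumor CD45+ cells and Ifitm6 the most abundant, on average, in spleen CD45+ cells. Summed over the 4 genes, family transcripts reached 3523 ± 134 FPKM in tumor CD45+ (SD, n = 4), 882 ± 266 in spleen CD45+ (SD, n = 3) and 153 ± 18.7 in spleen CD45- libraries (SD, n = 3). That was 0.356% to 0.458% of all FPKM in tumor CD45+, 0.0672% to 0.0982% in spleen CD45+ and 0.0103% to 0.0125% in spleen CD45- libraries. The 3 ranges did not overlap on either scale. Ifitm6, whose spleen values chose the family, gave 27.0% to 62.7% of the spleen CD45+ sum. The place of the spleen CD45+ sum is therefore a description with no test.

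Ifitm3, the endosomal restriction factor, had 1849, 2310, 2377 and 2224 FPKM in tumor CD45+ replicates 1 to 4. It had 454, 129 and 245 FPKM in spleen CD45+ replicates 1 to 3, and 147, 135 and 115 FPKM in spleen CD45- replicates 1 to 3. Every tumor library was above every spleen library, and the 2 splenic groups overlapped because spleen CD45+ replicate 2 lay within the CD45- range. With these levels Ifitm3 ranked between 66 and 96 among all genes in the tumor libraries.

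Ifitm2, the other endosomal member, had 1477, 1207, 1217 and 1098 FPKM in tumor CD45+ replicates 1 to 4. It had 199, 110 and 134 FPKM in spleen CD45+ replicates and 21.7, 17.6 and 15.1 FPKM in spleen CD45- replicates. All 3 groups were apart, in the order tumor CD45+, spleen CD45+, spleen CD45-. The 2 models of Ifitm2 were unequal, and 1 of them gave 97.9% to 98.2% of the tumor CD45+ value, 97.3% to 98.3% of the spleen CD45+ value and 93.2% to 95.5% of the spleen CD45- value.

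Ifitm1, the member of the cell surface, had 39.8, 25.5, 24.5 and 32.4 FPKM in tumor CD45+ replicates 1 to 4. It had 38.0, 18.4 and 34.4 FPKM in spleen CD45+ replicates and 0.52, 1.08 and 0.93 FPKM in spleen CD45- replicates. The CD45+ groups of tumor and spleen overlapped in part, with tumor replicate 1 above every spleen CD45+ value and spleen CD45+ replicate 2 below every tumor value, while spleen CD45- values rested on about 5.18 to 10.7 fragments per library. Ifitm1 was the sum of 4 models. The highest of them, a transcript of 560 bases, gave 67.6% to 76.7% of the gene's FPKM in tumor CD45+ and 46.1% to 59.7% in spleen CD45+ libraries, so its share did not overlap between these groups.

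Ifitm6 had 50.6, 52.9, 56.9 and 51.5 FPKM in tumor CD45+ replicates 1 to 4. It had 256, 331 and 696 FPKM in spleen CD45+ replicates and 1.26, 1.89 and 2.40 FPKM in spleen CD45- replicates. The 3 groups were apart, and the order of the CD45+ groups was the opposite of that of Ifitm2 and Ifitm3. The coefficient of variation of Ifitm6 was 5.26% in tumor CD45+ and 55.1% in spleen CD45+ libraries. The spleen CD45- values rested on about 14.9 to 31.4 fragments per library.

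**Figure D1:**
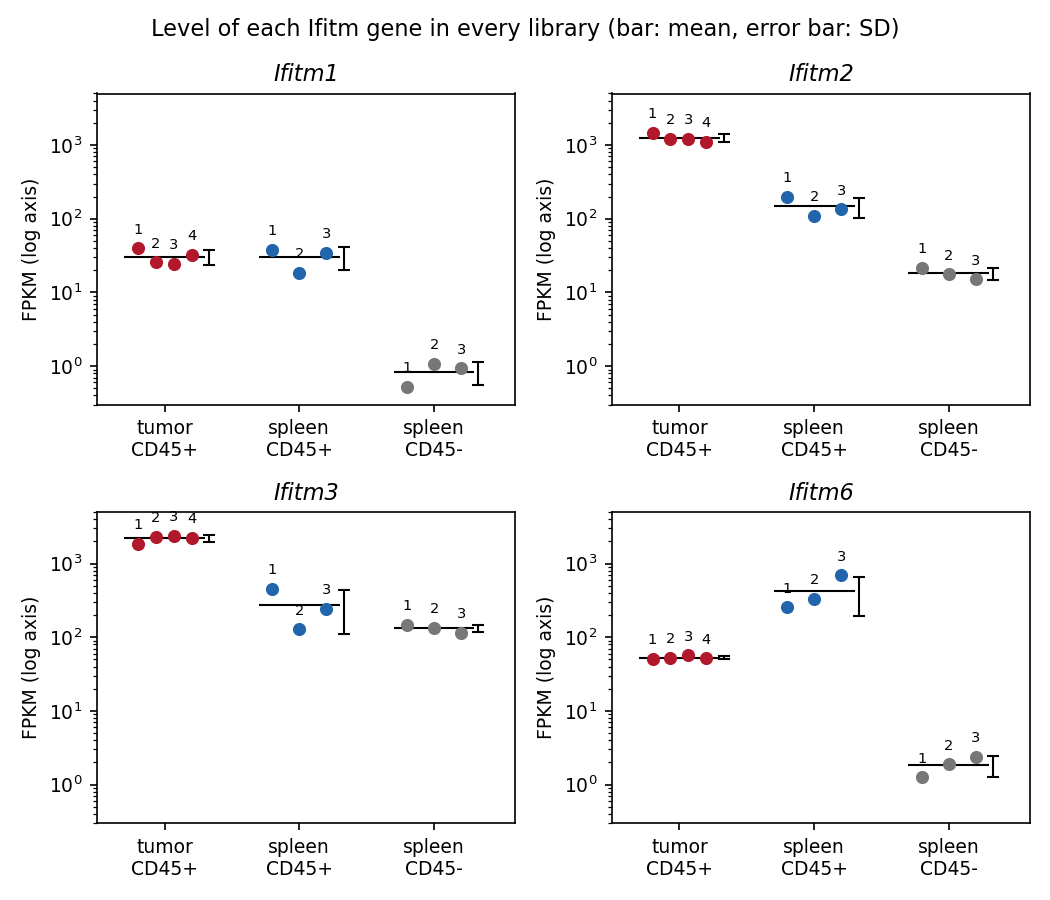
FPKM (log axis) of each Ifitm gene in tumor CD45+, spleen CD45+ and spleen CD45- libraries; points are libraries numbered by replicate, horizontal bars are means and error bars SD. Ifitm2 and Ifitm3 were highest in tumor CD45+ libraries (means 1249 and 2190 FPKM), Ifitm6 was highest in spleen CD45+ libraries (mean 428 FPKM), and Ifitm1 overlapped between the CD45+ groups.

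Tumor CD45+ cells against spleen CD45+ cells address how the same gate differs between tumor and spleen. Ifitm2 and Ifitm3 were higher in tumor CD45+ cells, and Ifitm1 was not called. Ifitm6 is described without a test here, because its spleen CD45+ values had chosen the family. Ifitm2 averaged 1249 ± 161 FPKM in tumor CD45+ (SD, n = 4) and 148 ± 45.9 in spleen CD45+ libraries (SD, n = 3), a ratio of 8.45. Its difference in log2(FPKM + 1) was 3.10 ± 0.22 (SE, limma adjusted p = 1.56e-05). Ifitm3 averaged 2190 ± 236 FPKM in tumor CD45+ and 276 ± 165 in spleen CD45+ libraries, a ratio of 7.93, with a log2 difference of 3.16 ± 0.38 (SE, limma adjusted p = 0.000236).

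Ifitm6 averaged 53.0 ± 2.79 FPKM in tumor CD45+ (SD, n = 4) and 428 ± 235 in spleen CD45+ libraries (SD, n = 3), 8.07-fold lower in the tumor group. The log2 difference was -2.85 ± 0.32 (SE), and it ran from -3.16 to -2.44 under the alternative settings. Ifitm1 averaged 30.6 ± 7.07 FPKM in tumor CD45+ and 30.3 ± 10.4 in spleen CD45+ libraries. Its log2 difference was 0.05, with a 95% interval of -0.61 to 0.71 (limma adjusted p = 0.889). A difference in either direction within that interval is compatible with these values. Its sign turned under other scalings and without single libraries, and with the highest model in place of the sum the value was 0.44 (limma adjusted p = 0.174).

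Of the 3 members other than Ifitm6, 2 were thus called higher in tumor CD45+ cells. Across all 11463 genes tested, 63.8% were called, 37.7% higher and 26.0% lower. The median over all genes was 0.20 and lay between 0.07 and 0.44 under other scalings. With every library scaled to a common sum the split was 4709 higher and 1963 lower in place of 4327 and 2986. The calls of Ifitm2 and Ifitm3 held under each of 18 alternative settings, which include leaving out each library. Their log2 differences ran from 2.92 to 3.37 for Ifitm2 and from 2.70 to 3.61 for Ifitm3.

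Tumor CD45+ cells against spleen CD45- cells differed in tissue and gate together, and these cannot be told apart. Ifitm1, Ifitm2 and Ifitm3 were higher in tumor CD45+ cells. Ifitm6 is again described without a test, because its spleen CD45- values had also entered the choice. The ratio of means was 68.9 for Ifitm2, with 1249 ± 161 FPKM in tumor CD45+ (SD, n = 4) and 18.1 ± 3.37 in spleen CD45- libraries (SD, n = 3). It was 36.2 for Ifitm1, with 30.6 ± 7.07 FPKM in tumor CD45+ and 0.843 ± 0.290 in spleen CD45- libraries. It was 28.7 for Ifitm6, with 53.0 ± 2.79 FPKM in tumor CD45+ and 1.85 ± 0.571 in spleen CD45- libraries. Ifitm3 had the smallest ratio of the 4, 16.5, with 2190 ± 236 FPKM in tumor CD45+ and 132 ± 16.2 in spleen CD45- libraries.

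The log2 differences were 6.04 ± 0.14 for Ifitm2 (SE, limma adjusted p = 5.77e-10), 4.08 ± 0.18 for Ifitm1 (SE, limma adjusted p = 3.11e-08) and 4.04 ± 0.13 for Ifitm3 (SE, limma adjusted p = 3.23e-09). That of Ifitm6 was 4.26 ± 0.13 (SE). In this comparison 90.0% of 11208 tested genes were called, 67.5% higher and 22.5% lower, with a median over all genes of 1.06. The split depended on the scaling: 7563 genes were called higher and 2522 lower as deposited, 4936 and 4977 after trimmed-mean scaling, when the median was -0.02. These 3 members were called higher under every one of the 18 alternatives, with log2 differences of at least 2.77.

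Spleen CD45+ against spleen CD45- cells was the comparison used to choose the family, and its values are a description with no test. Ifitm6 averaged 428 ± 235 FPKM in spleen CD45+ and 1.85 ± 0.571 in spleen CD45- libraries, a ratio of 231. Its log2 difference of 7.12 ± 0.38 (SE) ranked 1 among all genes tested. The log2 difference was 4.03 ± 0.31 for Ifitm1, 2.93 ± 0.27 for Ifitm2 and 0.88 ± 0.42 for Ifitm3, whose groups overlapped. The difference of Ifitm3 was -0.06 after trimmed-mean scaling. Of 9728 genes tested, 55.5% were called, 50.5% higher and 5.02% lower, with a median of 0.67 over all genes. The split of 4912 higher and 488 lower became 2362 and 2362 after trimmed-mean scaling, when the median was -0.17. The 3 comparisons share libraries in pairs, so their values are not independent of each other.

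**Figure D2:**
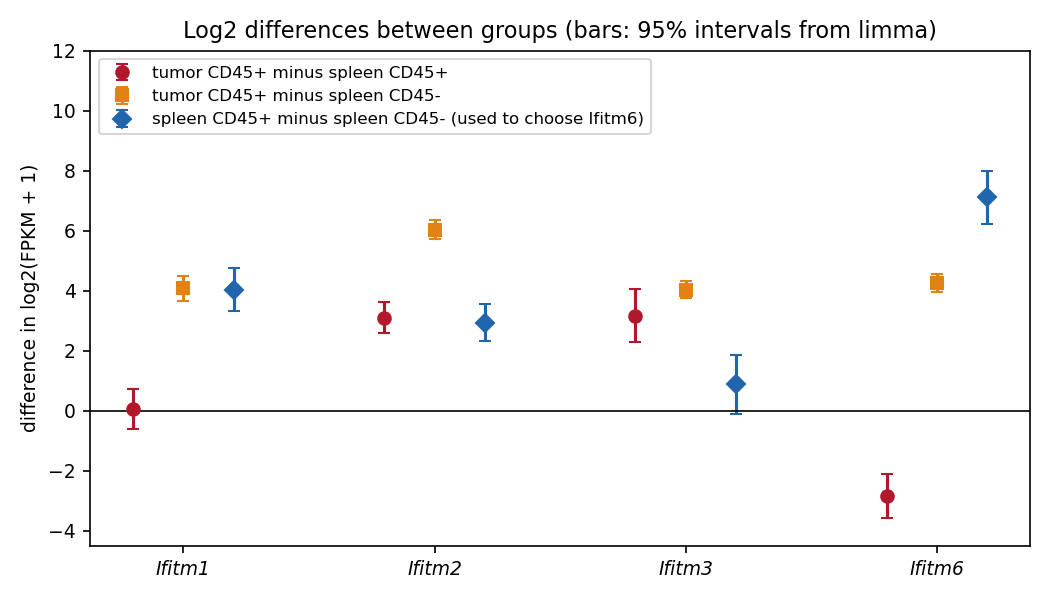
Difference in log2(FPKM + 1) for each Ifitm gene in the 3 comparisons, with 95% intervals from limma; the spleen comparison (diamonds) was used to choose the family and is shown without a test. Ifitm6 was the single member with a negative value between tumor and spleen CD45+ cells (-2.85), and the interval of Ifitm1 spanned 0.

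The make-up of the family sum, which no scaling between libraries can change, was unlike in the 3 groups. Ifitm3 gave 62.1% ± 5.33 of the sum in tumor CD45+ (SD, n = 4), 30.6% ± 15.0 in spleen CD45+ (SD, n = 3) and 86.4% ± 0.308 in spleen CD45- libraries (SD, n = 3). Ifitm2 gave 35.5% ± 5.16 in tumor CD45+, 17.3% ± 4.63 in spleen CD45+ and 11.8% ± 0.824 in spleen CD45- libraries. Ifitm6 gave 1.50% ± 0.0347 in tumor CD45+, 48.6% ± 19.0 in spleen CD45+ and 1.25% ± 0.530 in spleen CD45- libraries. Ifitm1 gave 0.873% ± 0.231 in tumor CD45+, 3.41% ± 0.520 in spleen CD45+ and 0.565% ± 0.226 in spleen CD45- libraries.

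Between tumor CD45+ and spleen CD45+ libraries the shares of all 4 members did not overlap. The spleen CD45+ values of Ifitm6, which chose the family, lower the shares of the other 3 members there, so these shares are a description with no test. Between tumor CD45+ and spleen CD45- libraries, where Ifitm6 was a small part of the sum, the shares of Ifitm2 and Ifitm3 did not overlap. Each gave a two-sided exact permutation p of 0.0571, the smallest that 4 against 3 libraries allow, so none could pass 0.05. After Benjamini-Hochberg adjustment over 8 tests the value was 0.0762. Those 8 include the shares between tumor and spleen CD45+ libraries and the Ifitm6 share, so the adjusted value depends on shares not used as tests here. The share of Ifitm1 gave an exact permutation p of 0.229 (0.261 after the same adjustment). The ratio of Ifitm2 to Ifitm3 was 0.494 to 0.799 in tumor CD45+ and 0.438 to 0.857 in spleen CD45+ libraries, which overlapped, against 0.131 to 0.148 in spleen CD45- libraries. The ratio of Ifitm6 to Ifitm3 was 0.0229 to 0.0274 in tumor CD45+, 0.563 to 2.84 in spleen CD45+ and 0.00856 to 0.0208 in spleen CD45- libraries.

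**Figure D3:**
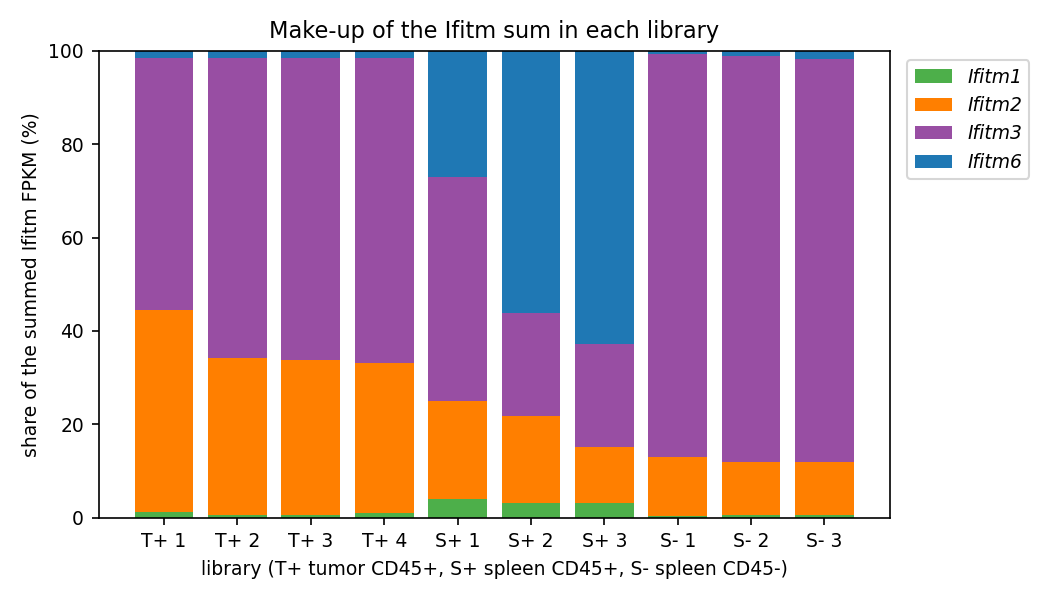
Share of each Ifitm gene in the summed Ifitm FPKM of a library (stacked bars, %), for tumor CD45+ (T+), spleen CD45+ (S+) and spleen CD45- (S-) replicates. Ifitm6 held 27.0% to 62.7% of the sum in spleen CD45+ libraries and below 2% elsewhere.

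Markers of other cell types moved with the members. The 16 neutrophil markers, among them the granule genes Ltf, Ngp and Camp, summed to 71.1 to 1779 FPKM in tumor CD45+, 23376 to 78223 in spleen CD45+ and 395 to 531 in spleen CD45- libraries. All 16 were called lower in tumor CD45+ than in spleen CD45+ cells, beside 26.0% of all genes. All 16 were called higher in spleen CD45+ than in spleen CD45- cells, beside 50.5% of all genes. Ifitm6 had these directions, and the spleen CD45+ values that chose it enter both. The 9 B cell markers were likewise all lower in the first comparison and all higher in the second. Of 9 tested T and NK cell markers, 8 were called lower in the first and 8 higher in the second. No neutrophil marker was at 0 in all libraries of a group, and Cxcr2 was below 1 FPKM in every tumor library. Within both splenic groups the libraries had the same order by Ifitm6 and by the neutrophil sum. Spleen CD45+ replicates 1, 2 and 3 had 256, 331 and 696 FPKM of Ifitm6 with sums of 23376, 32552 and 78223, and spleen CD45- replicates had 1.26, 1.89 and 2.40 FPKM with sums of 395, 492 and 531. In the tumor group, and between it and the spleen CD45- group, the orders differed. Tumor CD45+ libraries had 50.6 to 56.9 FPKM of Ifitm6 with a neutrophil sum of 1779 in replicate 1 and 71.1 to 79.0 in replicates 2 to 4. S100a8 and S100a9 made up most of the sum of replicate 1, with 1060 and 495 FPKM. The same genes made up most of the sum in every spleen library, with 15675 and 10228 FPKM in spleen CD45+ replicate 2. The ratio of Ifitm6 to S100a8, which encodes a neutrophil calcium-binding protein, was 0.0478 to 2.93 in tumor CD45+, 0.0192 to 0.0234 in spleen CD45+ and 0.00566 to 0.00896 in spleen CD45- libraries.

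The 14 monocyte and macrophage markers summed to 24725 to 46313 FPKM in tumor CD45+, 1484 to 4811 in spleen CD45+ and 73.9 to 128 in spleen CD45- libraries. Of these, 12 were called higher and 1 lower (Ly6c2, a marker of inflammatory monocytes) in tumor CD45+ than in spleen CD45+ cells, and all 14 higher than in spleen CD45- cells. Ifitm2 and Ifitm3 had the same direction, as did all 7 fibroblast and all 3 tested epithelial markers in both comparisons. Over all genes, 37.7% were called higher than in spleen CD45+ cells and 67.5% higher than in spleen CD45- cells. Within the tumor group, replicate 1 had the highest monocyte and macrophage sum, 46313 FPKM. That library had the lowest Ifitm3, 1849 FPKM, and the highest Ifitm2, 1477 FPKM. Lyz2, the lysozyme gene of myeloid cells, averaged 17722 FPKM in tumor CD45+ and 2364 in spleen CD45+ libraries. In tumor replicate 1 it had 29160.5 FPKM, most of the marker sum of that library. In the other tumor libraries Lyz2 had 11438 to 15342 FPKM. Fibroblast markers summed to 143 to 199 FPKM in tumor CD45+ libraries and to at most 0.51 in spleen CD45+ and 2.06 in spleen CD45- libraries. The epithelial list summed to 312 to 406 FPKM in tumor CD45+, 0.39 to 2.84 in spleen CD45+ and 0.03 to 0.84 in spleen CD45- libraries, with Krt5, Krt14, Trp63 and Epcam below 1 FPKM in every tumor library. B cell markers summed to 4.37 to 7.40 FPKM in tumor CD45+, 153 to 1407 in spleen CD45+ and 26.1 to 33.5 in spleen CD45- libraries. T and NK cell markers summed to 4.26 to 34.1 FPKM in tumor CD45+, 53.5 to 312 in spleen CD45+ and 18.8 to 19.1 in spleen CD45- libraries. Endothelial markers summed to 7.30 to 9.45 FPKM in tumor CD45+, 6.51 to 41.1 in spleen CD45+ and 1.76 to 2.10 in spleen CD45- libraries. The part of these cell types in the differences of the Ifitm genes was not tested.

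**Figure D4:**
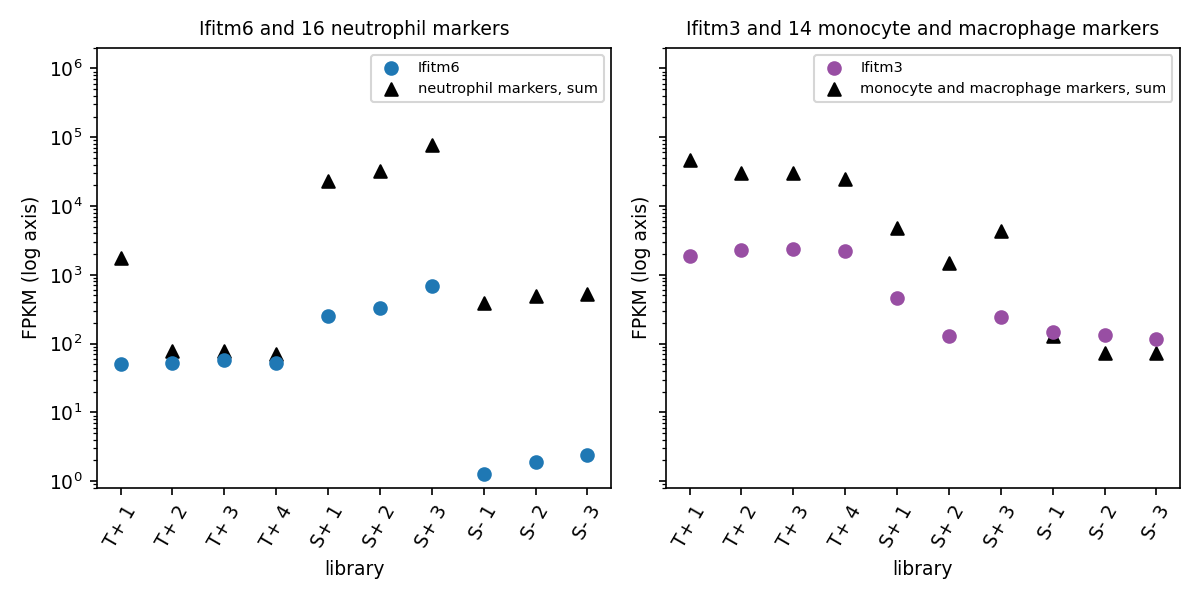
FPKM (log axis) of Ifitm6 with the sum of 16 neutrophil markers (left) and of Ifitm3 with the sum of 14 monocyte and macrophage markers (right) in each tumor CD45+ (T+), spleen CD45+ (S+) and spleen CD45- (S-) library. Ifitm6 was level in the tumor libraries (50.6 to 56.9 FPKM) while the neutrophil sum of replicate 1 (1779 FPKM) stood above that of the others.

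Genes of the pathway that induces the family were counted in lists chosen with earlier results of these data known. Among ligands, Ifnb1, which encodes interferon-β, had 5.97 to 20.2 FPKM in tumor CD45+ libraries and was listed at 0 in every spleen library of both gates. Ifng, which encodes interferon-γ, had 0 to 0.79 FPKM in tumor CD45+ and 0.08 to 3.46 in spleen CD45+ libraries and was below the filter. Of 13 ligands listed, 6 had values and Ifnb1 was the only one tested; the other 7 were not analysed here.

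Of 17 interferon receptor and signalling genes tested between tumor CD45+ and spleen CD45+ cells, 9 were called higher and 4 lower. Over all genes, 37.7% were called higher and 26.0% lower. The median log2 difference of the list was 0.89 against 0.20 over all genes. Leaving out single libraries gave 7 to 12 higher and 2 to 3 lower, and a common sum gave 2 lower. Socs3, a feedback inhibitor of cytokine signalling, had the largest difference, 4.03 ± 0.52 (SE, limma adjusted p = 0.000328). It averaged 187 ± 30.9 FPKM in tumor CD45+ (SD, n = 4) and 13.7 ± 12.5 in spleen CD45+ libraries (SD, n = 3). Irf7, the factor that amplifies type I interferon production, averaged 352 ± 91.9 FPKM in tumor CD45+ and 64.4 ± 33.5 in spleen CD45+ libraries, a log2 difference of 2.56 (limma adjusted p = 0.00146). The type I receptor chains Ifnar1 and Ifnar2 were higher by 0.75 and 0.94 on the log2 scale, and the interferon-γ receptor chain Ifngr2 by 1.94. The feedback gene Socs1 and the factor Irf1 were also called higher, by 1.74 and 1.75. Jak1, Jak2, Irf9 and Ifnlr1 were the 4 called lower. Irf9, which takes part in binding the ISRE, had a log2 difference of -0.57 (limma adjusted p = 0.0385).

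Of 38 other interferon-stimulated genes tested in the same comparison, 21 were called higher and 3 lower, beside 37.7% and 26.0% over all genes. Their median log2 difference was 1.43. The count higher ranged from 19 to 24, and the count lower from 1 to 5, when single libraries were left out. Cxcl10, a chemokine, averaged 122 ± 52.3 FPKM in tumor CD45+ (SD, n = 4) and 0.707 ± 0.433 in spleen CD45+ libraries (SD, n = 3), a log2 difference of 6.05 (limma adjusted p = 1.64e-05). Iigp1, an immunity-related GTPase, differed by 4.55, Ifit3 by 4.44 and Ifi27l2a by 4.08. Ifi27l2a reached 3076 ± 76.6 FPKM in tumor CD45+ and 301 ± 253 in spleen CD45+ libraries, near the level of Ifitm3 in the tumor group. The 3 called lower were Isg20, an exonuclease, Rsad2, which encodes viperin, and Igtp, an immunity-related GTPase. Isg20, with 39.8 ± 5.09 FPKM in tumor CD45+ and 445 ± 82.8 in spleen CD45+ libraries, had a log2 difference of -3.44 (limma adjusted p = 3.22e-06), in the direction of Ifitm6.

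Among 11 enzymes and partners that act on IFITM proteins, 3 were called higher and 1 lower, beside 37.7% and 26.0% over all genes. Their median log2 difference was 0.17, below that of all genes. Zdhhc20, a palmitoyltransferase of IFITM3, averaged 23.4 ± 0.857 FPKM in tumor CD45+ (SD, n = 4) and 9.15 ± 5.37 in spleen CD45+ libraries (SD, n = 3), a log2 difference of 1.46 (limma adjusted p = 0.0147). Vapa, a membrane contact protein known to bind IFITM3, differed by 1.41, and the palmitoyltransferase Zdhhc1 by 1.09. Abhd16a, a lipase reported to remove palmitate from IFITM proteins, differed by -0.61 (limma adjusted p = 0.0463), and that call was lost when any 1 of the 4 tumor libraries was left out. Of 10 other genes that restrict virus entry or release or shape those membranes, 6 were called higher and 2 lower. The share over all genes was again 37.7% higher and 26.0% lower, and the list median was 1.44. Ch25h, which makes the antiviral sterol 25-hydroxycholesterol, had 129 to 224 FPKM in tumor CD45+ and at most 0.03 in spleen CD45+ libraries. Bst2, which tethers budding viruses, and the tetraspanins Cd63 and Cd9 differed by 3.90, 4.22 and 2.54, and Serinc5, which lowers the infectivity of retroviruses, by -2.48.

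**Figure D5:**
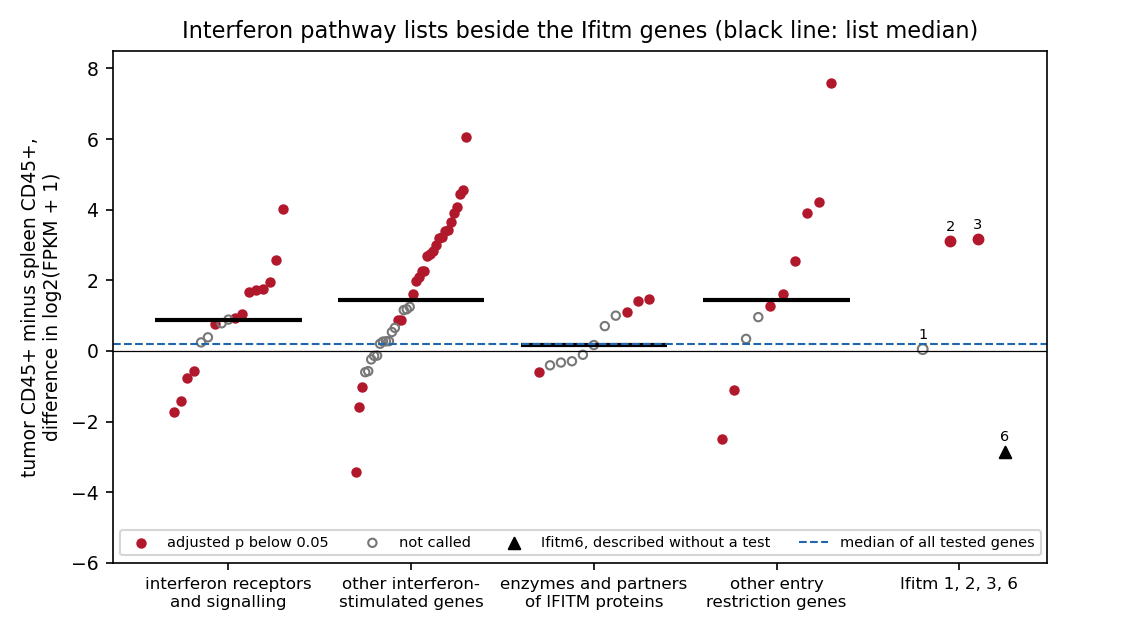
Difference in log2(FPKM + 1) between tumor CD45+ and spleen CD45+ cells for each tested gene of 4 lists and for the Ifitm genes (numbered 1, 2, 3 and 6); filled points passed a limma adjusted p of 0.05, black lines are list medians and the dashed line is the median of all genes (0.20). Ifitm2 and Ifitm3 lie among the higher interferon-stimulated genes, whose median was 1.43, and Ifitm6 (triangle), shown without a test, lies at -2.85.

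Against spleen CD45- cells, 12 of 16 tested receptor and signalling genes were called higher and 2 lower in tumor CD45+ cells, and 25 of 38 other interferon-stimulated genes were called higher and 6 lower. Over all genes 67.5% were called higher and 22.5% lower, and the shares of both lists called higher lay near that background. After trimmed-mean scaling these counts were 7 higher and 6 lower for the first list and 19 higher and 15 lower for the second. Of 11 enzymes and partners, 10 were called higher as deposited, and 6 higher with 4 lower after trimmed-mean scaling. Of the 10 entry restriction genes, 8 were called higher and 2 lower. In spleen CD45+ against spleen CD45- cells, 9 of 35 other interferon-stimulated genes were called higher and 6 lower, beside 50.5% higher and 5.02% lower over all genes, with a median of -0.02 against 0.67 over all genes. In that comparison Irf7 was lower by a log2 difference of -1.83 while Irf1 was higher by 3.35.

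Other CD225 genes were at or near the floor. Ifitm5, the bone member next to Ifitm2, had 0.57 to 1.26 FPKM in tumor CD45+ and 0.17 to 0.44 in spleen CD45+ libraries and was listed at 0 in spleen CD45- libraries. Ifitm10 had 0.65 to 0.85 FPKM in tumor CD45+, 0.33 to 3.75 in spleen CD45+ and 0.01 to 0.36 in spleen CD45- libraries. Ifitm7 did not exceed 0.06 FPKM in any library, and Trarg1, Prrt1, Prrt2, Tmem91, Tmem233, Syndig1 and Syndig1l did not pass the filter either. None of these 10 genes was tested.

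The genes around the cluster did not all move with it. Of 12 other protein-coding genes within 100 kb, 7 were tested between tumor CD45+ and spleen CD45+ cells. Limma called 0 of them, with 0 at an unadjusted p under 0.05, beside 63.8% called over all genes. Their log2 differences ran from -0.17 for Sirt3, a mitochondrial deacetylase, to 0.50 for Ric8a, a chaperone of G protein subunits. Against spleen CD45- cells, Ric8a, Pgghg, Pkp3 and Sigirr were called higher in tumor CD45+ cells and Sirt3 and Psmd13 lower. These were 4 and 2 of 7 tested, beside 67.5% higher and 22.5% lower over all genes. Between the splenic gates, 3 of 6 tested neighbours (Ric8a, Pgghg and Sigirr) were called higher in CD45+ cells, beside 50.5% over all genes. Pkp3, the plakophilin gene beyond Ifitm6, had 2.98 to 3.94 FPKM in tumor CD45+ and 0.06 to 0.13 in spleen CD45- libraries.

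The genes whose levels ran most like each member were found by the root mean square difference between centred log2(FPKM + 1) profiles over the 10 libraries, among 11537 genes. This is a description, and at low FPKM the added 1 flattens a profile. Ifitm1 was nearest to Actn1, Nfam1, Sema4a, Rac2 and Csf2rb, at 0.28 to 0.31. Actn1 averaged 31.1 FPKM in tumor CD45+, 26.8 in spleen CD45+ and 0.61 in spleen CD45- libraries. Ifitm2 was nearest to Aldoa, Rab31, Cyfip1, Myadm and Bst1, at 0.24 to 0.33. Aldoa, a glycolytic enzyme gene, averaged 1243 FPKM in tumor CD45+, 133 in spleen CD45+ and 22.6 in spleen CD45- libraries, close to Ifitm2 in level as well. Ifitm3 was nearest to Cdk14, Tns3, Eva1b, Matn2 and Tmem159, at 0.11 to 0.15, although these were at 1.00 to 1.71 FPKM in spleen CD45+ libraries and below 0.2 in spleen CD45- libraries.

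No gene ran as close to Ifitm6, whose nearest were Mmp9, Pygl, C3, Mcemp1 and Trem3 at 0.56 to 0.97. Ifitm6 was chosen for the largest difference between the splenic gates, and those values enter this distance. Its distance from other genes therefore follows in part from the choice and is no separate result. Mmp9, a gelatinase stored in neutrophil granules, averaged 18.1 FPKM in tumor CD45+, 90.0 in spleen CD45+ and 0.557 in spleen CD45- libraries. Among the members themselves Ifitm2 and Ifitm3 were nearest to each other, at 0.97, and Ifitm3 and Ifitm6 were farthest apart, at 2.87.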

How the data were processed

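Messenger RNA was sequenced from 10 libraries grouped by the labels' titles. Per the labels' protocols, TRIZOL extraction and library preparation were done by a sequencing company. Per the submitters' processing notes the genome build was GRCm38.p6, while aligner, expression program and strandedness are named in no source used here. The authors deposited 1 value for each of 61685 RefSeq models per library; no header names the unit, and the deposited values were read as FPKM because length-weighted sums lay near the value FPKM requires. Models were summed to 17603 genes, and 1518 models without a symbol were left out. Tests ran in limma 3.58.1 (R 4.3.3), with a trended prior variance, on log2(FPKM + 1) of genes that reached 1 FPKM in 3 or more of the libraries compared, with only the groups compared in a fit and Benjamini-Hochberg adjusted p below 0.05. Fold differences on this scale understate low genes. Shares were tested by exact permutation. Lists were summarised by counts, with up to 5 called genes of largest change named, and further genes were named after their values were seen. The members and lists were chosen with earlier results of these data known. The fit was tested on simulated data. Alternatives covered scaling, globin removal, pseudocount, filter, model choice, fit, block and left-out libraries. Scaling factors by trimmed means were computed without precision weights. Tables used Python 3.11.15, pandas 2.3.3 and scipy 1.17.1.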

Additional observations from a re-analysis of the deposited data

Results flagged for a closer look

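Of 32 quantities tested for a library apart from its group in the 4 tumor CD45+ libraries, 10 were singled out by Dixon's gap ratio (above 0.829), and in all 10 the library was replicate 1. Chance flags about 1 in 20 groups, and the 10 share the same library, so they are not independent. Ifitm2 gave 43.2% of the family sum in replicate 1 and 32.2% to 33.6% in the others (ratio 0.879). Ifitm3 gave 54.1% in replicate 1 and 64.3% to 65.3% in the others (0.906). Ch25h had 129 FPKM in replicate 1 and 215 to 224 in the others (0.907), and Fyn had 17.1 and 23.5 to 24.4 (0.867). Ifit3 had 99.3 FPKM in replicate 1 and 196 to 201 in the others (0.949), and Iigp1 had 32.6 and 87.1 to 92.5 (0.91). Irf1 had 36.2 FPKM in replicate 1 and 80.1 to 85.9 in the others (0.884), and Irf7 had 215 and 394 to 402 (0.959). Socs1 had 6.96 FPKM in replicate 1 and 11.5 to 12.4 in the others (0.843), and Zbp1 had 114 and 185 to 188 (0.959). In the same library the erythroid sum was 40981 FPKM (6001 to 6384 in the others), the neutrophil sum 1779 (71.1 to 79.0), the monocyte and macrophage sum 46313 (24725 to 30324), the epithelial sum 406 (312 to 318) and the B cell sum 7.40 (4.37 to 5.12). The T and NK cell sum was 4.26 FPKM (33.6 to 34.1 in the others), the fibroblast sum 143 (197 to 199), the endothelial sum 7.30 (9.05 to 9.45) and Ptprc 59.4 (90.1 to 92.5). The part of these in the lower interferon genes was not tested.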

How the results depend on the processing

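Over all results and alternatives, 7 values changed sign and 56 others moved by more than the replicate spread or, for counts, by over 1.5 times; counts among the other 679 could change by less. Ifitm2 and Ifitm3 stayed called higher between tumor and spleen CD45+ cells, and Ifitm1, Ifitm2 and Ifitm3 against spleen CD45- cells, in all 18 alternatives each. Ifitm1 between tumor and spleen CD45+ cells, not called, was -0.027 with trimmed-mean factors and -0.10 with median-ratio factors. Without single libraries it ranged from -0.26 (without spleen CD45+ replicate 2) to 0.24, with -0.08 without tumor replicate 1. Ifitm3 between splenic gates was -0.057 with trimmed-mean and -0.051 with median-ratio factors. The Ifitm6 share difference between tumor CD45+ and spleen CD45- was 0.253 percentage points and ranged from -0.00296 (without spleen CD45- replicate 1) to 0.527. Genes called lower in tumor against spleen CD45+ cells numbered 1963 under a common sum. In tumor CD45+ against spleen CD45- cells 4936 were higher and 4977 lower after trimmed-mean scaling, 4741 lower after median-ratio scaling and 1594 lower under a common sum. Between splenic gates 2362 were higher and 2362 lower after trimmed-mean scaling, 2269 higher and 2911 lower after median-ratio scaling, 121 lower under a common sum, 209 lower without globin genes, and 2683 higher at a filter of 5 FPKM. Leaving out single libraries gave 2741 to 3910 higher, the lowest without spleen CD45+ replicate 1, and 201 to 1419 lower, the highest without spleen CD45+ replicate 2. The causes were not tested. Same-numbered libraries did not all deviate together (r of -0.18 to -0.04 between tumor and spleen CD45+, -0.02 to 0.24 between tumor CD45+ and spleen CD45-, and -0.02 to 0.12 between splenic gates), so the numbers were not taken to pair them; the fit with the replicate block gave 3421 higher and 2263 lower there and changed no call of Ifitm1, Ifitm2 or Ifitm3. Values below 1 FPKM rest on few fragments at this depth.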
